A study of Mus musculus with 9 samples.

Results

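The genes described here encode the nuclear-encoded subunits of oxidative phosphorylation, the chain of complexes in the inner mitochondrial membrane that respires and makes ATP. They were taken from a table of raw gene counts by name: every row with a symbol starting in Nduf followed by a, b, c, s or v and a digit, any of Sdha to Sdhd, and every symbol starting in Uqcr, Cox4 to Cox8 or Atp5, without pseudogenes. This gave 84 of 30232 gene rows. Complex I had 35 of them, complex II 4, complex III 8, complex IV 20 and complex V 17. Ndufa4 and its paralogue Ndufa4l2 were placed with complex IV, because NDUFA4 is a subunit of cytochrome c oxidase despite its name. Atp5s and Atp5sl match by name but are not core subunits of ATP synthase. In 4 rows the authors had merged the subunit with an overlapping transcript: Sdha, Ndufb5 and Atp5j2 with a cDNA clone each, and Ndufa10 with the microRNA Mir6900. The filter on low counts passed 81 of the 84, and the 3 others, Cox6a2, Cox8b and Cox8c, are forms of complex IV subunits known from heart and skeletal muscle, brown fat and testis.

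The measurements are 3'-end poly(A)+ RNA-seq counts (MARS-seq2.0, which counts transcripts near their 3' end) from mouse embryonic stem cells: 4 libraries of wild-type cells and 5 of cells in which Gzf1, a gene for a zinc finger protein, was knocked out. The 4 libraries of sequencing run2 all came from the cell line RGM, namely replicates 1 and 2 of each genotype. The 5 libraries of run1 were wild-type replicate 3 (V6.5 line), wild-type replicate 4 (Cas9-GFP line) and knockout replicates 3, 4 and 5 (V6.5). All cells shared serum medium with LIF and a layer of irradiated embryonic fibroblasts as feeders, which were depleted before harvest. The labels do not say whether the knockout libraries are separate clones or the libraries separate cultures, so the p-values measure the spread between these libraries only. Because every RGM library is of run2 and no other line is, the effects of line and run cannot be told apart. Below, "run1 lines" means V6.5 and Cas9-GFP together.

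Complex I takes electrons from NADH and complex II (succinate dehydrogenase, also an enzyme of the TCA cycle) from succinate. Both pass them through coenzyme Q to complex III, cytochrome c and complex IV, which reduces oxygen, while complexes I, III and IV pump protons that drive the ATP synthase, complex V. All subunits of complex II are encoded in the nucleus, whereas the other complexes also hold subunits made inside the mitochondrion. Several complex IV subunits exist as alternative forms tied to a tissue or to low oxygen, and mouse embryonic stem cells in serum and LIF are known to use both glycolysis and respiration.

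Library totals were 2568489 to 3704162 counts in the RGM libraries and 4872127 to 7072697 in run1, so a count of 3, taken as the floor, was worth 0.424 to 1.17 CPM (the field's unit of counts scaled to library size). Subunit genes took 2.57% to 3.27% of the counts of a library. The stem cell markers Sox2 (359 to 591 CPM), Nanog (552 to 1083 CPM) and Pou5f1 (25.3 to 52.5 CPM) were present in all 9 libraries. Gzf1 itself lay at 8.11 to 30.0 CPM in wild-type and 1.66 to 14.2 CPM in knockout libraries (log2 fold change -1.45, adjusted p = 1.00 with edgeR's quasi-likelihood test). A 3' tag may lie outside the edited part of that gene, so this does not check the deletion. The summed level of 25 fibroblast marker genes, 24 of them tested, was 4635 to 7180 CPM in RGM and 2537 to 3627 CPM in the run1 lines. The defining fibroblast genes Col1a1 (160 to 575 CPM) and Dcn (1.32 to 13.0 CPM) were above 0 in every library. In bulk RNA, fewer cells of a type and less RNA per cell cannot be told apart.

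The promoters show what the members share in sequence. RefSeq promoters of the GRCm38.p6 assembly, 250 bases before to 50 after an annotated start, were matched for 69 of the 84 members. Several motifs were searched on both strands. The 3 counted together, known from mitochondrial genes, were the NRF1 core CGCATGCG, the ETS motif CCGGAAG bound by GABP, and the YY1 motif AAGATGGCG. The SP1 box, ERR motif and TATA box were searched as well and are given last, outside the joint counts. At least 1 of the 3 was in the promoters of 27 members and none of the 3 in 42, and 0 matches overlapped one another. The NRF1 core was in 9 members (13.0%), against 4.40% of 10079 tested genes with a promoter and 1.87% of all 32851 promoters. The ETS motif was in 16 members (23.2%), against 19.97% of tested genes and 8.86% of all promoters. YY1 was in 8 members (11.6%), against 3.57% and 1.40%. In 7 of those 8 (Atp5j2, Atp5sl, Ndufa9, Ndufc1, Ndufs4, Ndufs6 and Ndufs7) a match began 23 to 36 bases into the transcript; of the 477 YY1 matches in all promoters, 53.2% lay after the start. The GC-rich SP1 box GGGCGG, by contrast, was in 40.6% of members and in 69.9% of tested genes. The ERR motif AAGGTCA was in 8 members (11.6%), against 3.84% of tested genes and 4.72% of all promoters. The TATA box TATAAA was in 7 members (10.1%), against 8.6% of tested genes and 13.6% of all promoters.

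The stretch from 250 bases before to 10 after the start is shown for 6 members, with the matches in capitals, because they differed between lines in both genotypes, as described below (Ndufa4 and Cox8a higher in RGM, Ndufa10 and Atp5g1 lower), or held several motifs (Atp5j at its second annotated start, the one member with all 3 motifs, and Uqcr11, with NRF1 and ETS). All lie on the minus strand, at chr6:11907441-11907700 for Ndufa4, chr19:7217607-7217866 for Cox8a, chr16:84834967-84835226 for Atp5j, chr10:80406812-80407071 for Uqcr11, chr1:92473749-92474008 for Ndufa10 and chr11:96075622-96075881 for Atp5g1.
Ndufa4: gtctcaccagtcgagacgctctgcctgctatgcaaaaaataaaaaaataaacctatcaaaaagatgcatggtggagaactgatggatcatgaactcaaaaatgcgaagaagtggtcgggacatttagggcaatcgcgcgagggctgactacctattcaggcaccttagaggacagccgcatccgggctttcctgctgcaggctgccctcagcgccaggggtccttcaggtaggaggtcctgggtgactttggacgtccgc
Cox8a: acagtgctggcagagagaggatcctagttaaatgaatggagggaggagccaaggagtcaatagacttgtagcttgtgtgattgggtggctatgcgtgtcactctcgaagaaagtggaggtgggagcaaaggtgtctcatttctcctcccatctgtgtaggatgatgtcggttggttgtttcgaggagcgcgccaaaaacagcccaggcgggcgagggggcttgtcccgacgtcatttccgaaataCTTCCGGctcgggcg
Atp5j: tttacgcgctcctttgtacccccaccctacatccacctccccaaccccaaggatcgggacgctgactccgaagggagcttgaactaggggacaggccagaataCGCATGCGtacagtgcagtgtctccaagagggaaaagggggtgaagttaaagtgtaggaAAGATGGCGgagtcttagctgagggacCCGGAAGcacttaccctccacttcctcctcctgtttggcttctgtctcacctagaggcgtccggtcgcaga
Uqcr11: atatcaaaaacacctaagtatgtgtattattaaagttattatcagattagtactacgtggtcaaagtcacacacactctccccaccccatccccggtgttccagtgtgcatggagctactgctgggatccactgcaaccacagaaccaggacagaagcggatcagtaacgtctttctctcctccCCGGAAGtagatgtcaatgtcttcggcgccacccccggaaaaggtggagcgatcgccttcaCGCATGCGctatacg
Ndufa10: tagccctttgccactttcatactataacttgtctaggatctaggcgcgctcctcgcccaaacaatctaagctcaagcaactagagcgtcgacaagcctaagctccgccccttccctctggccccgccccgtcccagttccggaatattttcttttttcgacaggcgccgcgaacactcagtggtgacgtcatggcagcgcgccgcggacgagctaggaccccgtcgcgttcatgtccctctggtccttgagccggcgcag
Atp5g1: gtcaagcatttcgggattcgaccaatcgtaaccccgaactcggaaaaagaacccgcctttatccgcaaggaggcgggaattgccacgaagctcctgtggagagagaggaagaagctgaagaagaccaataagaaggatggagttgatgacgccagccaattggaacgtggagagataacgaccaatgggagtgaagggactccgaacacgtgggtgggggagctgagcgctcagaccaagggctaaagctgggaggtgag
Ndufa4, Ndufa10 and Atp5g1 hold none of the 3 motifs in this window, while Cox8a has an ETS match at its start and Atp5j has all 3. The Atp5j start lies beside Gabpa, the gene for the DNA-binding subunit of GABP, on the other strand. A match is a description of letters and says nothing of binding.

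The first comparison asks what loss of Gzf1 changed in these transcripts, with the run as a term in the fit. Of the 81 tested subunits 0 passed the test in knockout against wild-type cells (edgeR quasi-likelihood, adjusted p under 0.05; DESeq2 also 0), where 0.0316% of 12645 tested genes did. At an unadjusted p under 0.05 there were 3 members (3.70%), against 2.32% of all tested genes: Ndufa5, Uqcrh and Atp5e. The members' log2 fold changes ran from -0.41 to 0.39 with a median standard error of 0.13, and 74 of 81 lay within 1.2-fold of no change. The same count was not made over all tested genes, whose median standard error was 0.20. The members' median was -0.05, beside 0.01 for all tested genes. Above and below 0 lay 27 and 54 members, and 6656 and 5989 of all tested genes. The mitochondrial ribosome (24 above, 52 below) and cytosolic ribosomal proteins (22 and 63) also leaned below 0. Assembly factors of complexes II to V (17 and 15) did not. By complex, the medians were -0.05 for complex I, 0.00 for complex II, -0.06 for complex III, 0.03 for complex IV and -0.06 for complex V. The summed CPM of all members in knockout was 0.966 times that in wild-type libraries, 0.947 times within RGM and 1.01 times within run1.

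**Figure D1:**
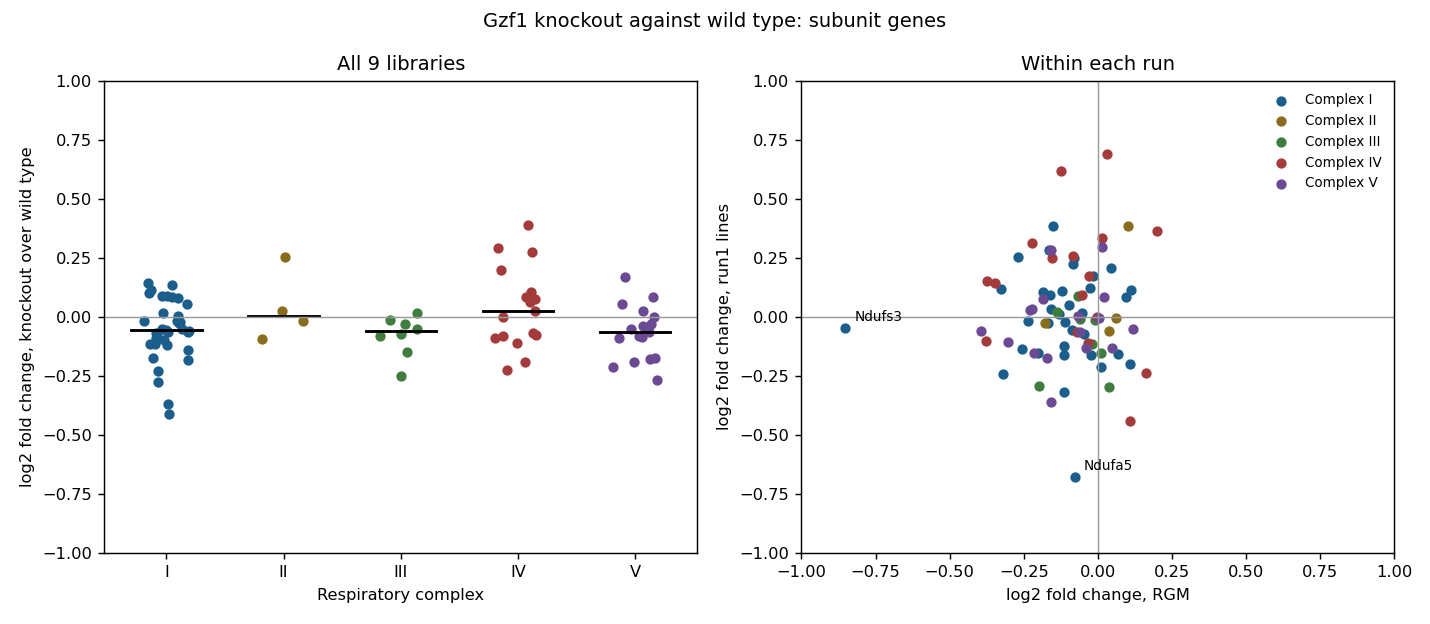
Log2 fold change of Gzf1 knockout over wild type for the 81 tested subunit genes: left, all 9 libraries by respiratory complex (each point a gene, the bar the median); right, the effect within RGM (x axis) against that within the run1 lines (y axis). The members lie close to 0, between -0.41 and 0.39 over all libraries, and Ndufa5 and Ndufs3 lie low on 1 axis only.

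Ndufa5, an accessory subunit of the peripheral arm of complex I, had the smallest p. It stood at 275 and 279 CPM in RGM wild-type libraries, 268 and 257 in RGM knockout, 303 in V6.5 and 216 in Cas9-GFP wild-type, and 164, 162 and 161 in V6.5 knockout. The 3 V6.5 knockout libraries were the lowest of all and the RGM genotypes nearly level. Its log2 fold change was -0.41 ± 0.14 (SE; unadjusted p = 0.0115, adjusted p = 1.00), -0.68 ± 0.17 within run1 and -0.08 ± 0.19 within RGM, and the difference between the runs had an unadjusted p of 0.0321 (adjusted p = 1.00). Ndufs3, a core subunit of the same arm, showed the other arrangement: 29.1 and 25.7 CPM in RGM wild-type against 15.4 and 15.0 in RGM knockout, but 39.2 and 33.9 against 38.6, 29.9 and 37.5 in run1. Its knockout effect was -0.85 ± 0.26 in RGM and -0.05 ± 0.21 in run1, and their difference had an unadjusted p of 0.0338. Ndufs3 and Ndufa5 were the members with such a p under 0.05, which 1.44% of tested genes had; after adjustment the difference between runs passed for 0 members and 0% of all genes (edgeR; DESeq2 also 0 members).

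Ndufa9, a complex I subunit near the coenzyme Q site, was the 1 tested member whose genotypes did not overlap, a pattern that 0.443% of tested genes had in either direction. Its level was 201 to 227 CPM in the 4 wild-type and 159 to 196 CPM in the 5 knockout libraries, a log2 fold change of -0.23 ± 0.11 (unadjusted p = 0.0628, adjusted p = 1.00). Uqcrh, the hinge subunit of complex III, differed by -0.25 ± 0.11 and Atp5e, the epsilon subunit of ATP synthase, by -0.27 ± 0.12, with overlapping genotypes in both. Within RGM alone 0 members and 0% of all genes passed (1 member at an unadjusted p under 0.05, against 0.822% of genes), and within run1 0 members and 0.0158% of genes (3 members or 3.70% unadjusted, against 3.84% of genes), by edgeR; DESeq2 called 0 members in either. The sign of the effect was the same in both runs for 38 of 81 members. The median effect was -0.08 in RGM and -0.0045 in run1, beside 0.01 and 0.02 for all genes.

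Cell line and run, by contrast, came with differences in many subunits. Of the 81 tested, 34 (42.0%) passed the test between RGM and the run1 lines (edgeR quasi-likelihood, adjusted p under 0.05), near the 45.3% of all tested genes that passed. The balance was 23 higher and 11 lower in RGM, where 22.2% of all genes were called higher and 23.1% lower, and the members' median was 0.11 on the log2 scale against -0.02 for all genes. The members' differences were the smaller: the median size among called members was 0.57 on the log2 scale against 0.93 among all called genes, and 5 members (6.17%) were called and over 2-fold, against 20.2% of all genes. The median member had a mean of 292 CPM, and 69 of 84 had a mean over 100 CPM; what part this depth has in the size of the called differences was not tested. The RGM libraries lay wholly above run1 for 18 tested members and wholly below for 11, together 35.8%, where 38.6% of all tested genes had no overlap.

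**Figure D2:**
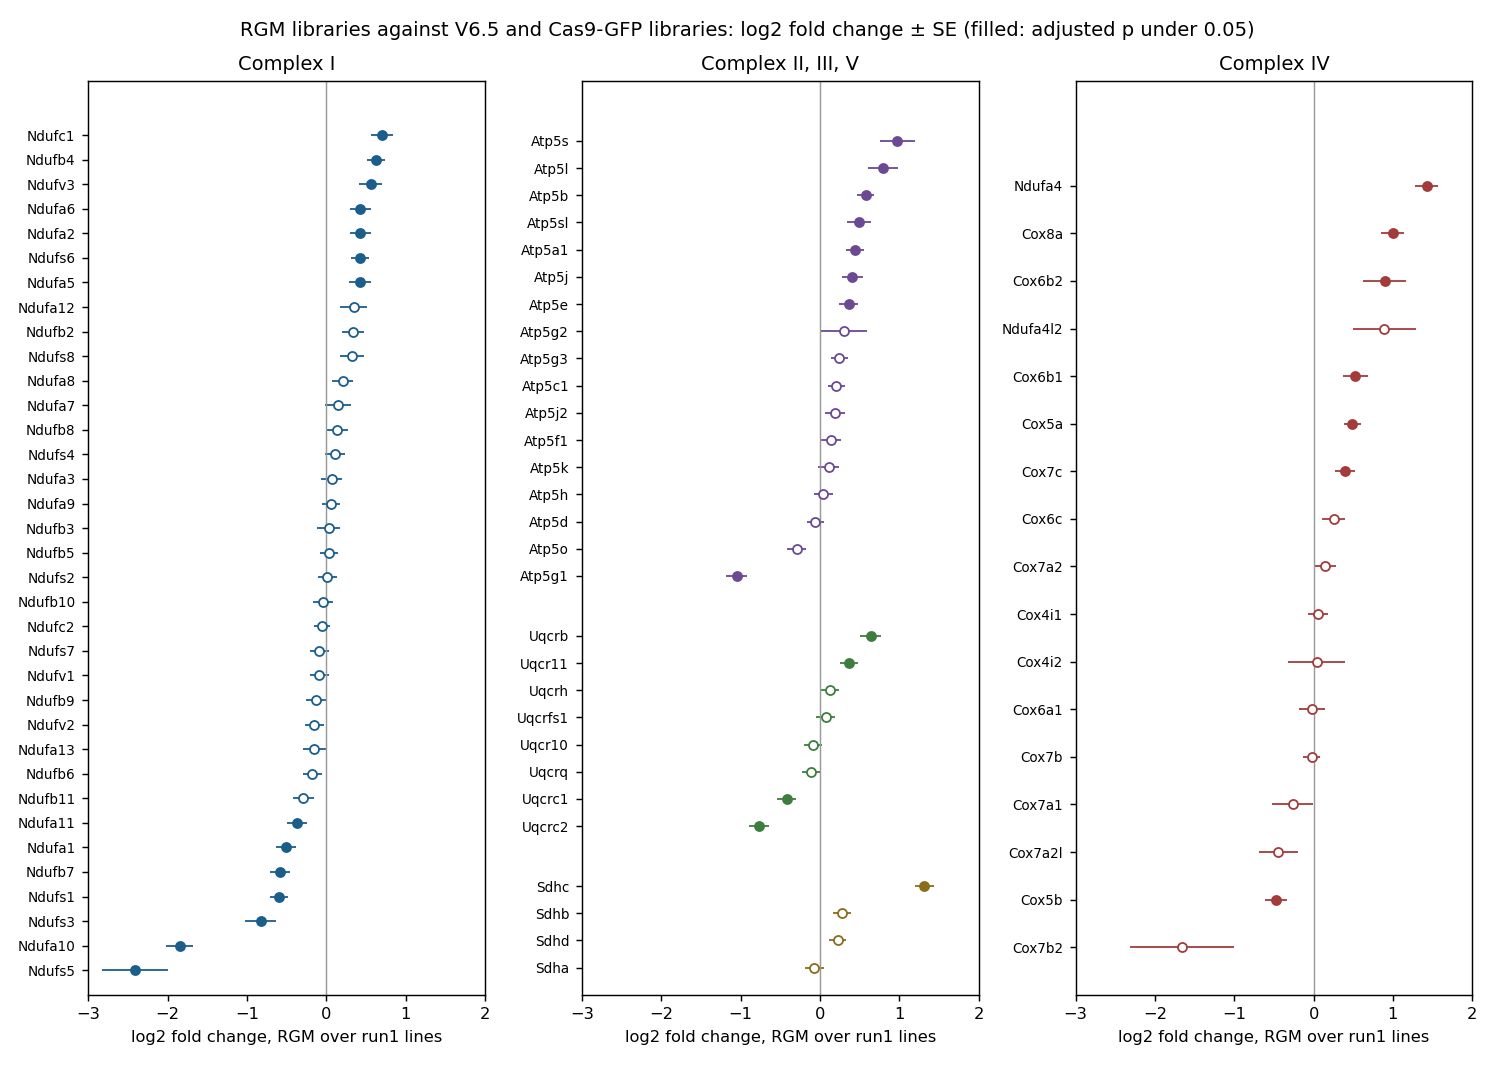
Log2 fold change of RGM over the run1 lines (x axis) with its standard error for each of the 81 tested subunit genes (y axis), grouped by complex; filled points passed the test. Values run from -2.41 (Ndufs5) to 1.42 (Ndufa4), with higher and lower calls balanced in complexes I and III (7 and 7, 2 and 2) and mostly higher in complexes IV and V (6 and 1, 7 and 1).

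The 34 calls had the same sign in wild-type libraries alone and in knockout libraries alone. Each genotype alone called 20 members, among 24.4% of all genes in wild-type and 25% in knockout, and 12 of the 34 passed in both: Sdhc, Ndufa4, Cox8a, Cox5a, Uqcrb, Ndufb4 and Atp5b were higher in RGM, and Ndufs5, Ndufa10, Ndufs1, Uqcrc2 and Atp5g1 lower. Outside the 34, Ndufs8 passed in wild-type libraries alone (edgeR, 0.61 ± 0.21, adjusted p = 0.0494). Ndufb11, also outside the 34, passed in knockout libraries alone (edgeR, -0.49 ± 0.16, adjusted p = 0.0425). Leaving out any 1 library kept the call for 23 of the 34. The other 11 were lost as follows: without wild-type replicate 1 for Atp5j (adjusted p = 0.0713), Atp5sl (0.0616), Cox7c (0.0698), Ndufa2 (0.0603) and Ndufa11 (0.0504), without wild-type replicate 2 for Atp5e (0.0591), Atp5j (0.0509) and Cox7c (0.0563), and without wild-type replicate 3 for Atp5j (0.0506) and Ndufa6 (0.0501). Without wild-type replicate 4 they were lost for Atp5j (0.0607), Cox6b1 (0.058), Cox7c (0.0678), Ndufa11 (0.0591) and Ndufa5 (0.0622). Without knockout replicate 1 they were lost for Atp5e (0.158), Atp5sl (0.0693), Cox7c (0.0531), Ndufa11 (0.0754), Ndufa5 (0.104), Ndufa6 (0.0645) and Uqcr11 (0.051), and without knockout replicate 2 for Cox5b (0.060), Ndufa11 (0.0894), Ndufa5 (0.0801) and Uqcr11 (0.095).

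Summed over a complex, the RGM level was 1.04 times that of run1 for complex I, 1.40 times for complex II, 0.952 times for complex III, 1.24 times for complex IV and 1.19 times for complex V. Complex II held 1207 and 1288 CPM in RGM wild-type, 1278 and 1244 in RGM knockout, and 829.2, 923, 927, 844 and 960 in the run1 libraries. Most of its difference between RGM (mean 1254 CPM) and run1 (897 CPM) lay in Sdhc, with means of 465 and 191 CPM. The mean of Sdha was the lower in RGM (214 against 224 CPM). Complex V held 9257, 9411, 9046 and 9077 CPM in RGM against 7415, 8091, 7687, 7277 and 8153 in run1. For these 2 complexes the RGM libraries were all above run1. Complex IV, at 8450 to 9427 CPM in RGM, overlapped with run1 through knockout replicate 5 alone (8594 CPM, the other 4 at 6644 to 7005). Complexes I (9035 to 10040 against 8343 to 10502 CPM) and III (3108 to 3277 against 3039 to 3766 CPM) overlapped. The fibroblast marker sum was higher in RGM, as were the sums of complexes II, IV and V, with 19 of 24 tested markers called higher and 1 lower; its part in these differences was not tested.

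**Figure D3:**
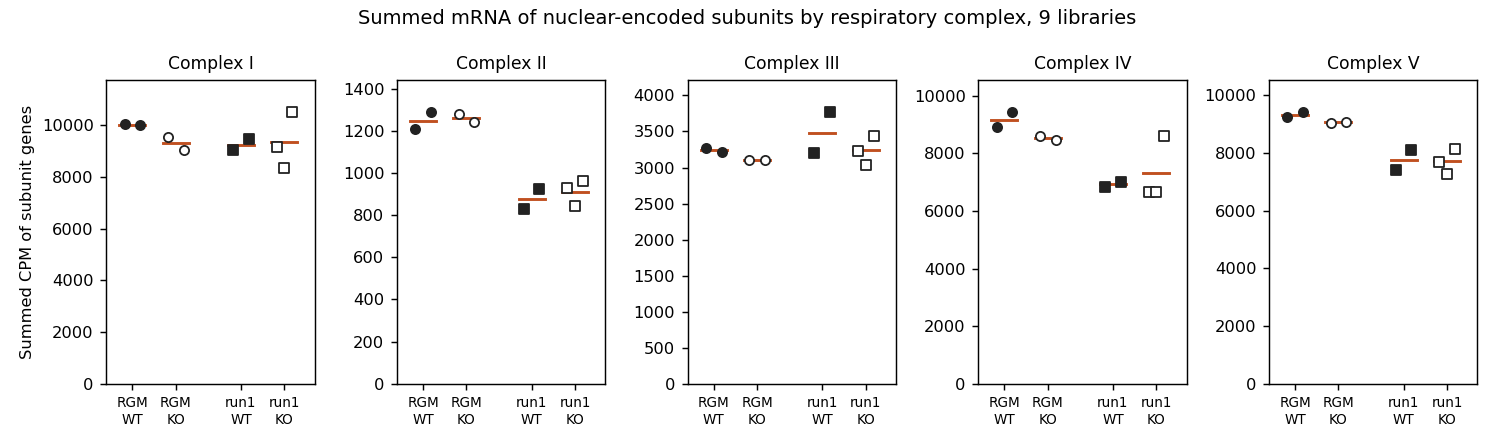
Summed CPM of the subunit genes of each respiratory complex (y axis, from 0) in the 9 libraries; filled symbols are wild-type (WT) and open symbols knockout (KO), circles RGM and squares run1 lines, and bars are group means. RGM libraries lie above run1 for complexes II and V, and the complex IV square near the RGM level is knockout replicate 5 at 8594 CPM. Most of the complex II difference lies in Sdhc.

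Complex I had 7 members higher and 7 lower of 35. Ndufa10, an accessory subunit on the proton-pumping arm (chr1:92439010-92473860, minus strand, mm10), had 35.0 and 29.2 CPM in RGM wild-type, 32.0 and 21.7 in RGM knockout, 127 in V6.5 and 94.2 in Cas9-GFP wild-type, and 96.8, 88.1 and 118 in V6.5 knockout. The groups were far apart, and the log2 fold change was -1.84 ± 0.17 (adjusted p = 2.52e-06). Its row is merged with Mir6900, so the value covers both. Ndufs1, the largest core subunit, which carries iron-sulfur clusters and lies near the entry of electrons, had 102 to 121 CPM in RGM and 155 to 190 in run1 (-0.60 ± 0.11, adjusted p = 0.000800). Other lower members were Ndufs3 (-0.82 ± 0.20), Ndufb7 (-0.58 ± 0.12) and Ndufa1 (-0.51 ± 0.13). The 3' end of Ndufs3 has a copy elsewhere, Gm12251 (99.6% identical over 226 bases). Its row may therefore not hold all its reads, here and in the knockout comparison. Higher members were accessory subunits: Ndufc1 (302 to 331 against 137 to 222 CPM, 0.70 ± 0.14), Ndufb4 (202 to 237 against 132 to 163 CPM, 0.63 ± 0.12), Ndufv3 (0.56 ± 0.14), Ndufa6 (0.43 ± 0.13) and Ndufa5 (0.42 ± 0.14). The most even member of the complex was Ndufc2, at 293 to 332 CPM over all 9 libraries.

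Ndufs5, another accessory subunit (chr4:123712710-123718202, minus strand), lay near the floor, with 3, 4, 4 and 3 counts in the RGM libraries and 51, 28, 37, 21 and 64 in run1. Pooled, 14 and 201 counts make its share of counts 5.63 times higher in run1 (exact 95% counting interval 3.28 to 10.5, counting error only), and the fitted log2 fold change was -2.41 ± 0.42 (adjusted p = 0.000403). The last 300 bases of Ndufs5 have a copy, the processed pseudogene BC002163, which is 99.3% identical over 274 bases and has a row of its own with more counts: 119, 80, 100 and 75 in RGM and 551, 518, 767, 421 and 642 in run1. That row was also lower in RGM (-1.58 ± 0.15, adjusted p = 2.78e-06). The sources used here do not say how the authors' counting divided reads between the copies, so the Ndufs5 level is uncertain, while both rows differ in the same direction.

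Among the 4 subunits of complex II, Sdhc alone was called. Sdhc, a membrane anchor that helps bind coenzyme Q and heme (chr1:171127165-171150603, minus strand), had 414 and 483 CPM in RGM wild-type, 493 and 470 in RGM knockout, 138 in V6.5 and 186 in Cas9-GFP wild-type, and 213, 201 and 220 in V6.5 knockout. RGM libraries held 465 ± 35.1 CPM (SD, n = 4) and run1 libraries 191 ± 32.5 (SD, n = 5), a log2 fold change of 1.32 ± 0.12 (adjusted p = 3.13e-06). Its partner anchor Sdhd (274 to 292 against 220 to 263 CPM; 0.23 ± 0.11, adjusted p = 0.0988) and the iron-sulfur subunit Sdhb (275 to 327 against 220 to 268 CPM; 0.28 ± 0.11, adjusted p = 0.0532) did not overlap between the groups but missed the threshold. Sdhb passed in DESeq2 (adjusted p = 0.048) and, in edgeR, without knockout replicate 5 (adjusted p = 0.0457). The catalytic flavoprotein Sdha, in a merged row, stood at 204 to 226 CPM in RGM and 180 to 247 in run1.

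In complex III, 2 of 8 members were higher and 2 lower. Uqcrc2 was at 304, 272, 302 and 270 CPM in RGM and 457, 523, 470, 405 and 582 in run1 (-0.76 ± 0.13, adjusted p = 0.000300), and Uqcrc1 at 350 to 418 against 485 to 580 CPM (-0.42 ± 0.11, adjusted p = 0.00808). Both encode the large matrix-facing core proteins. Uqcrb, which lies at the coenzyme Q binding region, was at 269 to 319 CPM in RGM against 156 to 224 in run1 (0.64 ± 0.13, adjusted p = 0.00109), and the small subunit Uqcr11 at 262 to 300 against 179 to 242 CPM (0.37 ± 0.12, adjusted p = 0.0201). The Rieske iron-sulfur protein Uqcrfs1, Uqcr10, Uqcrq and Uqcrh did not pass. Uqcrb and Uqcr11 have near-identical copies of their 3' ends elsewhere in the genome, and Uqcrb and Uqcrc2 overlap exons of a gene on the other strand, so their levels carry that uncertainty.

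Complex IV had 6 members higher and 1 lower of 17 tested. Ndufa4 (chr6:11900292-11907497, minus strand) had 650 and 640 CPM in RGM wild-type, 718 and 672 in RGM knockout, 354 in V6.5 and 238 in Cas9-GFP wild-type, and 219, 219 and 217 in V6.5 knockout. No run1 library reached the RGM range, and the log2 fold change was 1.42 ± 0.14 (adjusted p = 5.04e-06). Cox8a, the ubiquitous form of a small membrane subunit (chr19:7215153-7217616, minus strand), had 815, 820, 669 and 594 CPM in RGM and 346, 328, 289, 436 and 398 in run1 (1.00 ± 0.15, adjusted p = 0.000110). Cox5a, a subunit on the matrix side, was at 1253 to 1386 CPM in RGM against 822 to 1021 (0.48 ± 0.11, adjusted p = 0.00217). Cox6b1 (0.52 ± 0.16), Cox6b2 (0.89 ± 0.27) and Cox7c (0.40 ± 0.13) were also called higher, with overlapping groups. Cox5b, which binds zinc, was the 1 called lower, at 81.3 to 99.5 against 108 to 150 CPM (-0.47 ± 0.13, adjusted p = 0.0103). Cox4i1, Cox6a1, Cox7a2 and Cox7b, the widely expressed forms of their subunits, did not pass.

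Complex V had 7 members higher and 1 lower of 17. The catalytic beta subunit Atp5b was at 1957, 2059, 2037 and 2038 CPM in RGM and 1250, 1379, 1328, 1271 and 1586 in run1 (0.58 ± 0.11, adjusted p = 0.000740). The alpha subunit Atp5a1 was at 1367 to 1402 against 831 to 1178 CPM (0.44 ± 0.11, adjusted p = 0.00546). The other higher calls were Atp5s (0.97 ± 0.22), Atp5l (0.79 ± 0.19), Atp5sl (0.49 ± 0.15), Atp5j (0.41 ± 0.13) and Atp5e (0.36 ± 0.12). Of these, Atp5s and Atp5sl are counted here by name and are not core subunits of ATP synthase. Atp5g1 (chr11:96068852-96075670, minus strand), one of 3 genes for the same mature c-ring protein, went the other way, with 89.5, 98.7, 72.7 and 79.7 CPM in RGM and 192, 170, 198, 162 and 144 in run1 (-1.05 ± 0.13, adjusted p = 3.40e-05). Its share of the counts of the 3 c-ring genes was 5.53% to 7.76% in RGM and 12.6% to 17.5% in run1. The exact 95% binomial intervals had half-widths of at most 0.94 percentage points (counting error only). Atp5g3, which held most of those counts, was at 1164 to 1358 against 933 to 1137 CPM (0.25 ± 0.11, adjusted p = 0.0811), and Atp5g2 stayed at 3.34 to 5.13 CPM. Atp5g2 has a copy identical over all of its last 300 bases, Atp5l has 9 copies, and Atp5g1 has 1 (Gm10039, 99.5% identical over 186 bases), so these rows may not hold all their reads.

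**Figure D4:**
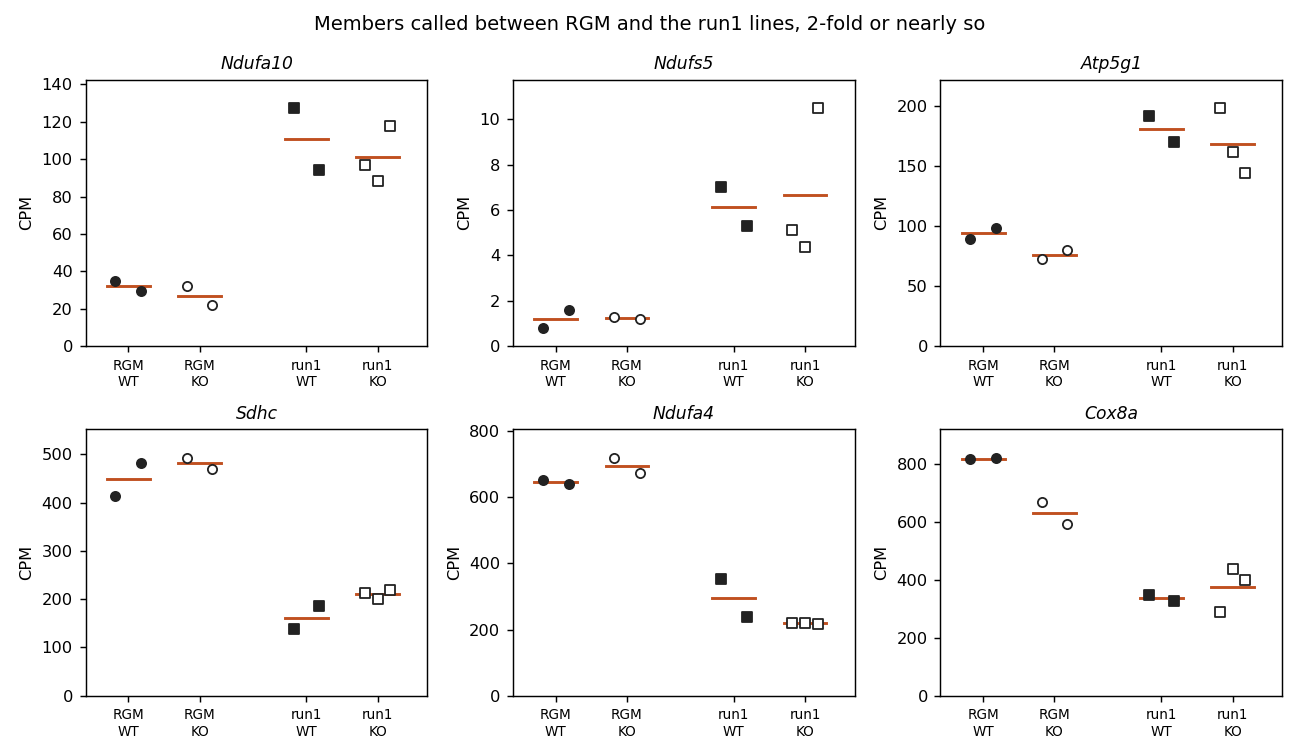
CPM of the 5 members called over 2-fold between RGM and run1 lines, and Cox8a just under, in each of the 9 libraries (y axes from 0; filled wild-type, open knockout, circles RGM, squares run1 lines, bars group means). RGM and run1 values do not overlap in any of the 6 panels.

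Some complex IV paralogues varied more than the other members between libraries of the same genotype and run. The SD of log2 CPM within those groups had a median of 0.17 over the tested members (0.29 over all tested genes, most of them counted less deeply). The 6 largest were all in complex IV: Cox7b2 (1.26), Ndufa4l2 (0.79), Cox4i2 (0.66), Cox7a1 (0.55), Cox6b2 (0.52) and Cox7a2l (0.49). Each is a paralogue of a widely expressed subunit or, for Cox7a2l, a related factor in supercomplexes. The alternative c-ring genes Atp5g1 (0.17) and Atp5g2 (0.18) lay near the median of the members. Ndufc2 (0.06), Atp5c1 (0.08), Sdhd (0.08), Atp5d (0.09) and Ndufs1 (0.09) varied least.

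Ndufa4l2, a paralogue of Ndufa4 known to be induced at low oxygen, was at 127, 90.8, 128 and 94.7 CPM in RGM and 49.6, 42.0, 39.1, 32.2 and 150 in run1. Knockout replicate 5 was the highest of all libraries and the other run1 libraries were the 4 lowest. The line difference was 0.89 ± 0.40 (adjusted p = 0.0893) with this library and 1.43 ± 0.16 (adjusted p = 1.46e-05) without it. Ndufa4l2 took 12.3% to 16.3% of the counts of the pair with Ndufa4 in 8 libraries. In knockout replicate 5 it took 40.9% (exact 95% binomial interval 38.9% to 43.0%, counting error only). Its exons overlap those of Shmt2 on the other strand.

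Cox4i2, the low-oxygen and lung form of subunit IV, was at 21.6 CPM in knockout replicate 5 against 6.22 to 13.0 in the other 8. It made up 3.10% of the counts shared with Cox4i1 there (exact 95% binomial interval 2.6% to 3.66%, counting error only), and 0.871% to 2.25% elsewhere. Cox7b2, known from testis, ranged from 1.11 CPM (knockout replicate 3) to 20.7 CPM (knockout replicate 5) within V6.5 knockout alone; its line difference of -1.66 ± 0.66 missed the threshold in edgeR (adjusted p = 0.0585) but passed in DESeq2 (adjusted p = 0.00947), and in edgeR without knockout replicate 3 (-1.95 ± 0.36, adjusted p = 0.000817) or without wild-type replicate 3 (-1.79 ± 0.66, adjusted p = 0.047). Cox7a1, the muscle form of subunit VIIa, was at 42.2 to 131 CPM with both extremes in V6.5 knockout. Its line difference did not pass over all 9 libraries (edgeR, -0.26 ± 0.26, adjusted p = 0.429). Of the alternatives, it passed only without knockout replicate 4 (-0.43 ± 0.16, adjusted p = 0.0401). Cox7a2l ran from 92.4 (knockout replicate 3) to 228 CPM (knockout replicate 5). Its line difference did not pass over all 9 libraries (edgeR, -0.45 ± 0.25, adjusted p = 0.162). Among the fits with 1 library left out, it passed only without knockout replicate 3 (-0.58 ± 0.20, adjusted p = 0.0309). Knockout replicate 5 also had the highest summed glycolysis genes, 16286 CPM against 11004 to 13932 in the others. It was the highest library for 24 of the 81 members, and knockout replicate 4 was the lowest for 31. These counts were not made over all tested genes, so they cannot be called particular to the subunits. What part the glycolysis difference has in the levels of the subunits was not tested.

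Cox6b2, the testis form of subunit VIb, was at 274, 327, 312 and 239 CPM in RGM. In run1 it stood at 106 in V6.5 and 138 in Cas9-GFP wild-type, and at 93.2, 243 and 228 in V6.5 knockout, so knockout replicate 4 reached the RGM range and knockout replicate 5 lay just below it. Its share of the counts of the pair with Cox6b1 was 27.3% to 33.4% in RGM and 14.4% to 42.0% in run1. The exact 95% binomial intervals had half-widths of at most 2.05 percentage points (counting error only). The remaining tissue-restricted forms were at or near 0: Cox6a2 had 0 to 4 counts, Cox8b 0 to 5 and Cox8c 4 to 9 per library. For the 4 RGM libraries Cox6a2 was at 0 counts throughout, which allows up to the floor of 3 counts.

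**Figure D5:**
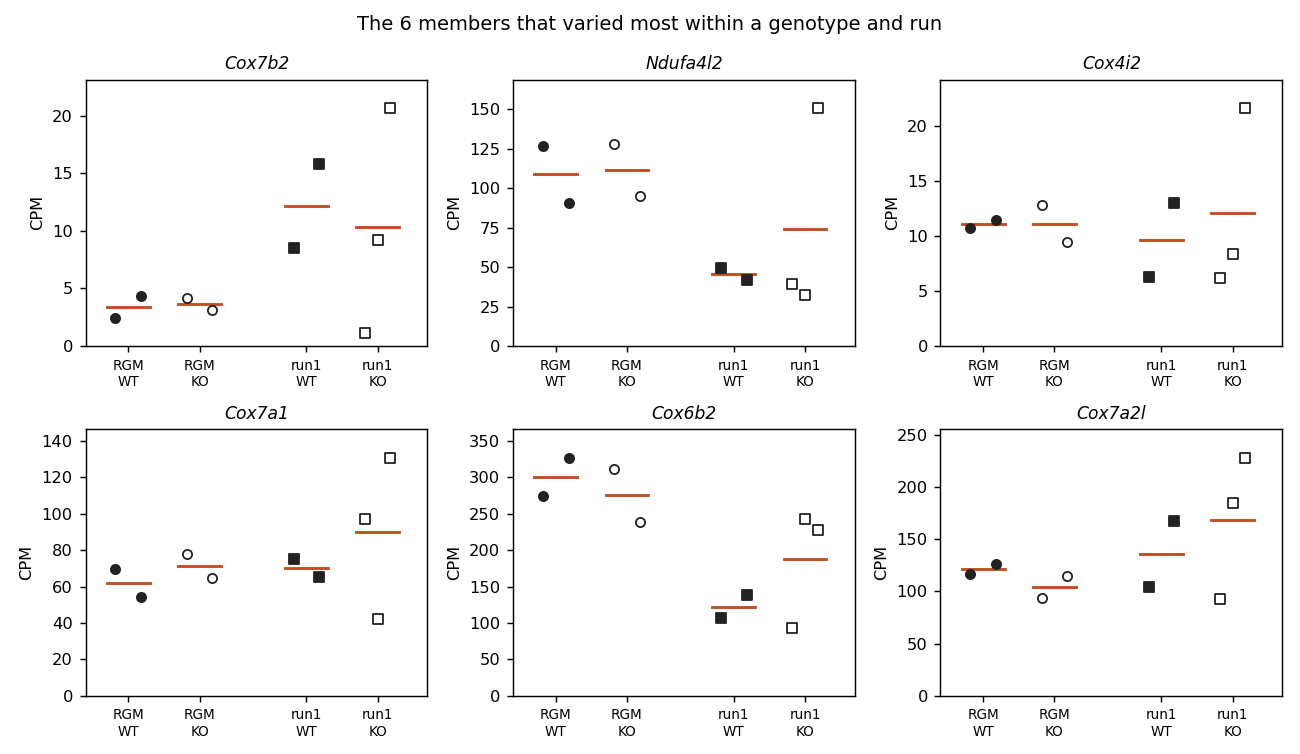
CPM (y axes from 0) of the 6 tested members with the largest spread between libraries of one genotype and run (filled wild-type, open knockout, circles RGM, squares run1 lines, bars group means). In the V6.5 knockout group the 3 squares span 1.11 to 20.7 CPM for Cox7b2 and 32.2 to 150 CPM for Ndufa4l2.

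Near-identical copies were common among the members. Of the 84, 18 (21.4%) have a copy elsewhere of their last 300 exonic bases (97% identity or more over at least 100 bases), against 5.99% of the 11947 tested protein-coding genes. Of members with a copy, 9 of 18 were called between RGM and run1 (5 higher, 4 lower), and of those without, 25 of 63 (18 higher, 7 lower). Over all tested genes, 46.6% of those with a copy and 44.9% of those without were called. Only 2 of the 18 best-matching copies had a row of their own, BC002163 and Gm10012 (the copy of Cox7c). Antisense exons overlap further members named here, among them Ndufs1 (Eef1b2), Ndufs3 (Kbtbd4), Atp5j (Gabpa), Cox4i1 (Emc8) and Ndufa9 (1700018A23Rik), and the sources used here do not say whether counting used strand. By call, YY1 was in 4 of 19 members called higher, 0 of 9 called lower and 4 of 40 not called. In the same groups the NRF1 core was in 3, 2 and 4 members and the ETS motif in 6, 2 and 8.

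The rest of the mitochondrial gene set gives the setting. In knockout against wild-type cells 0 genes of the 12 lists passed (edgeR and DESeq2). At an unadjusted p under 0.05 (edgeR) there were 8 of 85 cytosolic ribosomal proteins (9.41%), against 2.32% of all tested genes. The mitochondrial ribosome had 2 of 76 (2.63%) and assembly factors of complexes II to V 2 of 32 (6.25%). Complex I assembly factors had 1 of 16 (6.25%), stem cell markers 1 of 12 (8.33%) and the other lists 0. Between RGM and run1, the 16 other respiratory subunits and carriers had 5 higher and 2 lower calls (median 0.15), led by 1810058I24Rik (317 to 349 against 103 to 140 CPM, 1.46 ± 0.12) and by Minos1, part of the cristae-organising MICOS complex (0.66 ± 0.12). Complex I assembly factors had 2 higher and 1 lower of 16, with Tmem126b at 0.63 ± 0.22 and Acad9, which is needed to build complex I, at 8.68 to 15.6 CPM in RGM against 39.9 to 56.9 (-2.05 ± 0.20). Assembly factors of complexes II to V had 4 higher and 8 lower of 32 (median -0.13), with the copper chaperone Cox11 at -0.84 ± 0.14 and Sdhaf3, which matures Sdhb, at 1.05 ± 0.17. Coenzyme Q synthesis had 1 higher (Coq10a, 1.14 ± 0.25) and 3 lower of 13 (Coq7 at -0.66 ± 0.13). The mitochondrial ribosome was even, with 17 higher and 17 lower of 76 (Mrps35 0.82 ± 0.12, Mrpl55 -1.09 ± 0.13).

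Protein import had 5 higher and 8 lower of 23, with Timm23, the inner membrane channel, at -1.42 ± 0.19 and its helper Timm8a1 at -1.92 ± 0.16. The TCA cycle with pyruvate dehydrogenase had 4 higher and 5 lower of 21; Suclg2, a subunit of succinyl-CoA ligase one step before complex II, was at 107 to 129 CPM in RGM against 31.5 to 38.2 (1.74 ± 0.13), and Idh3g at -0.88 ± 0.11. Regulators of mitochondrial biogenesis had 2 higher (Tfb2m, 1.45 ± 0.24) and 5 lower of 21 (Lrpprc, which stabilises mitochondrial mRNA, at -0.98 ± 0.14). Glycolysis had 4 higher and 7 lower of 22 (median -0.25). Pdk1, for a kinase that inhibits pyruvate dehydrogenase, was at 1.06 ± 0.21 and the glucose transporter Slc2a1 at -0.94 ± 0.16. Cytosolic ribosomal proteins, also short abundant transcripts with many copies in the genome, had 31 higher and 19 lower of 85 (median 0.19), with Rps2 at 65.5 to 81.1 CPM in RGM against 1435 to 2297 in run1 (-4.60 ± 0.19) and Rps3a1 at -2.07 ± 0.15. Stem cell markers had 3 higher and 3 lower of 12, with Zfp42 at 3.30 ± 0.13 and Lin28a at 1.55 ± 0.17, and among fibroblast markers Lox (2.35 ± 0.18) and Thbs1 (1.86 ± 0.17) led.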

How the data were processed

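The authors deposited 1 table of raw counts per gene symbol for the 9 libraries, whole numbers without normalization. The submitters' processing notes list STAR, DESeq2 and the genome mm10, with no version. Neither the counting tool nor its annotation, nor whether reads or molecular identifiers were counted, is stated in the sources used here. Of 30324 rows, 92 spike-in rows (1 count in all) were left out. Genes were tested with edgeR 4.0.16 (R 4.3.3): filterByExpr with a minimum count of 10 left 12645 genes, scaled by TMM and fitted by robust quasi-likelihood with run and genotype as terms, or with the 4 groups of genotype by run for effects within a run. P-values were adjusted over all genes (Benjamini-Hochberg, threshold 0.05), and SE is the log2 fold change divided by the root of F. CPM use TMM-scaled library sizes. The scripts were tested on simulated data. The members, lists and tests were chosen with earlier results of these data known. Named genes are, per complex, the 3 with the smallest p in each main comparison, the 2 highest by mean CPM, alternative forms with their partners, members passing within a run or genotype, and 2 per other list; Ndufa2, Ndufa11, Ndufc2, Ndufs4, Ndufs6, Ndufs7, Atp5c1, Atp5d, Atp5g2, Atp5g3, Atp5j2, Atp5sl, Uqcrfs1, Sdha and Ndufb5 were added for their motif, spread or role after their values were seen. Gene positions, exon overlaps and 3' copies (blastn) come from GENCODE M21 on GRCm38, the mm10 assembly. Alternatives were DESeq2 1.42.0 and its size factors, total counts, no filter, each library left out, a replicate block, no run term, each genotype alone, merged rows left out and, added after seeing the data, members with a 3' copy left out.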

Additional observations from a re-analysis of the deposited data

Results flagged for a closer look

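In 5 of 116 sets of 4 wild-type or 5 knockout values (named members and complex sums), 1 library stood apart from the others by a gap larger than Dixon's 95% critical value. Chance flags about 1 in 20 sets when the values come from a single normal group. These sets pool RGM and run1 libraries, and some overlap, as Uqcr10 is part of the complex III sum. That rate is therefore only a rough guide here. Atp5o was at 606.7 CPM in wild-type replicate 4, above the other wild-type libraries at 433 to 447 CPM. Uqcr10 was at 638.2 CPM in the same library, the only one from the Cas9-GFP line, against 502 to 512 CPM. The summed CPM of complex III was 3766 there as well, against 3203 to 3277. Ndufa7 was at 659.5 CPM in wild-type replicate 3, against 951 to 981 CPM in the other wild-type libraries, and Cox6b1 at 335.6 CPM in knockout replicate 4, against 540 to 620 CPM.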

How the results depend on the processing

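In the knockout comparison 0 members were called under every alternative run, and the median log2 fold change of the members stayed negative, from -0.01 to -0.09 (-0.09 without knockout replicate 5). Beyond line and run, the number is the only link given between same-numbered replicates, and replicate 4 pairs different lines. Their deviations from the mean of each genotype and run correlated by -0.0652, -0.0652, 0.299 and 0.335. With 2 libraries in each RGM group, the first 2 values are equal by construction. In run1 the wild-type deviations hold only the difference between V6.5 and Cas9-GFP. These correlations therefore cannot decide whether the libraries are pairs. With the replicate block, 0 members were called, their median was -0.09, and calls over all genes went from 4 to 6; without the filter on low counts they went to 35. Between RGM and run1 the members' median stayed between 0.06 and 0.16. Its 34 calls ranged from 27 to 38 when 1 library was left out, the 23 higher from 17 to 26 and the 11 lower from 9 to 14. Wild-type libraries alone gave 20 calls (14 higher, 6 lower) and knockout libraries alone 20 (11 higher, 9 lower), with fewer libraries in each. Leaving out the members with a 3' copy, which removes 18 of them, gave 25 calls, 7 of them lower. For named members in this comparison, 672 values kept their direction and side of the threshold, 44 were weaker, 19 stronger and 0 called values changed sign. No filter on low counts ended the calls of Atp5e (adjusted p = 0.060), Cox7c (0.0518) and Uqcr11 (0.0639), and called Cox7b2, Cox7a2l, Ndufa4l2 and Atp5o. DESeq2 also called Cox7b2, Sdhb and Atp5o. Depth limits Ndufs5, Atp5g2 and Cox7b2 most.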
